A study of Mus musculus with 10 samples.

Results

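The genes described here are those of Desert hedgehog signalling, 8 genes chosen by symbol. They are Dhh, which encodes the ligand, the receptor gene Ptch1 and the decoy receptor gene Hhip, the signal transducer gene Smo, the transcription factor genes Gli1, Gli2 and Gli3, and the inhibitor gene Sufu. All 8 were found among the 17816 genes of the day 7 table and among the 20007 genes of the adult table. Genes entered the tests if their FPKM (fragments per kilobase of gene, scaled to the mapped fragments of the library) reached 0.5 in 2 samples at day 7 or in 3 in adult testis. By this filter 8 of the 8 were tested at day 7 and 6 of the 8 in adult testis, Hhip and Gli3 being too low there.

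RNA sequencing was available for 10 mouse samples in 2 tables. The day 7 table held cultured Sertoli cells, the supporting cells of the seminiferous tubule, taken from testes 7 days after birth, with 2 control samples of genotype Rnf20 Flox/Flox and 2 knockout samples of genotype Amh-Rnf20-/-. Both genotypes carry lox sites in Rnf20, which encodes an E3 ligase that places ubiquitin on histone H2B, and in the Amh-Rnf20-/- mice a Cre recombinase under the Amh promoter, which is active in Sertoli cells, removes the flanked part. The adult table held whole testis, 3 samples labelled WT and 3 labelled RNF20 conditional knockout, and the Cre line and exact age of these mice are not given in the labels. The Sertoli cells were enriched by enzyme digestion and adhesion and were passaged before lysis, so that other adherent cells may remain. The labels give testis as the source and adult tissue as the growth entry for all 10 samples, so the age of the day 7 samples is taken from their titles and their cell type from the study's methods. Those methods name 3 individuals in each day 7 group, whereas the fits here used 2 samples from each. The labels do not say that replicates came from separate mice, and the p-values measure the spread between these samples only.

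In the testis, Dhh is the hedgehog ligand made by Sertoli cells, and the cells outside the tubule, such as Leydig cell precursors and peritubular cells, carry the receptors and respond to it. Without ligand, the PTCH1 protein holds SMO inactive, and SUFU retains the GLI proteins, GLI3 and part of GLI2 being cut to repressor forms. When ligand binds PTCH1, SMO acts at the primary cilium, GLI activators enter the nucleus, and Gli1, Ptch1 and Hhip are themselves among the genes they switch on.

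In RefSeq on GRCm38.p6, Dhh lies at chr15:98881615-98898562, Ptch1 at chr13:63508328-63573460, Hhip at chr8:79965850-80058060, Smo at chr6:29735497-29761366, Gli1 at chr10:127329882-127341579, Gli2 at chr1:118834061-119054405, Gli3 at chr13:15463723-15730026 and Sufu at chr19:46396896-46488804. The 250 bases before the start site listed in RefSeq are shown for 3 of the genes, the ligand, the receptor that rose in adult testis and the inhibitor that fell there, with each CpG dinucleotide in capitals. All 3 are read 5′ to 3′ on the strand of the gene, from chr15:98898541-98898790 on the minus strand for Dhh, chr13:63565736-63565985 on the minus strand for Ptch1, where the listed start lies inside the whole span of the gene, and chr19:46396646-46396895 on the plus strand for Sufu.
Dhh: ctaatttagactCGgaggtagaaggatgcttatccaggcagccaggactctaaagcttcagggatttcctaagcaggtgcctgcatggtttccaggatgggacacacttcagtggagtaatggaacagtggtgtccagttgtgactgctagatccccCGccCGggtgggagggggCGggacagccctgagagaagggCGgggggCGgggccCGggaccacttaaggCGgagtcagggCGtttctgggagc
Ptch1: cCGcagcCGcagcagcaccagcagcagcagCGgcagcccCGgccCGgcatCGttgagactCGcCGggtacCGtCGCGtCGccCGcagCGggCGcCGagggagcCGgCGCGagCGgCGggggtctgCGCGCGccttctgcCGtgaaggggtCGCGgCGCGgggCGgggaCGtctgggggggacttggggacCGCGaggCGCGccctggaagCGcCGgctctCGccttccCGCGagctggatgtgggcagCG
Sufu: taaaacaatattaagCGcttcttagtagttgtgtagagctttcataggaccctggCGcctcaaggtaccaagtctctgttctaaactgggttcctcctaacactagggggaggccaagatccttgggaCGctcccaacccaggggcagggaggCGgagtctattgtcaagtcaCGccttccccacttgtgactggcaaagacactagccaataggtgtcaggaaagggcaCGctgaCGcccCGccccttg

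The Dhh window held 9 CpG dinucleotides and the Sufu window 8, against a median of 6 over 32851 promoter windows of the same length, whereas the Ptch1 window held 41. Of the other members, Gli3 had 34, Hhip 28, Gli2 22 and Smo 15 in the same window, and no entry was used for Gli1. The motif GACCACCCA, the core bound by GLI proteins, was searched for on both strands and was found in 0 of the 7 windows. It was found in 0.225% of all windows, so these letters are rare near start sites in general.

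Some facts of the libraries bear on all values below. Each sample held between 15431912 and 17705347 estimated counts. At day 7, Rnf20 itself was 16.64 and 16.01 FPKM in the Rnf20 Flox/Flox samples and 10.25 and 12.58 FPKM after Cre, and its log2 fold change of -0.49 ± 0.12 (SE) did not pass the threshold (adjusted p = 0.222, edgeR's quasi-likelihood test). It was -0.35 without Amh-Rnf20-/- replicate 1 (adjusted p = 0.0112) and -0.64 without replicate 2 (adjusted p = 0.000452). In adult testis it was 4.89, 3.32 and 4.09 FPKM in the samples labelled WT and 9.16, 5.76 and 9.85 in those labelled conditional knockout, with a log2 fold change of 0.12 ± 0.27 after TMM scaling (adjusted p = 0.688), -0.08 after median-ratio scaling and 0.97 when total counts were used (adjusted p = 0.0168). With limma on log2(FPKM + 0.1), which has no such scaling, it was 0.97 (adjusted p = 0.0152). The transcript level therefore did not separate the adult groups in the direction of their labels, and these are called the labelled knockout samples throughout. Within the labelled knockout group, replicate 1 stood apart, as its counts gave a chi-square of 92.8 and 124 per degree of freedom against replicates 2 and 3, which differed from each other by 22.4. At day 7 the Amh-Rnf20-/- samples differed by 36.2 and the Rnf20 Flox/Flox samples by 2.73.

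Markers of cell types moved with the groups. The counts of called adult markers below stand beside a large background. By edgeR, 81.5% of all genes tested in adult testis were called at an adjusted p under 0.05, 40.9% higher and 40.6% lower. In adult testis, the summed FPKM of 8 spermatid markers was between 124000 and 192000 in the samples labelled WT and 2.54, 78.4 and 36.2 in the labelled knockout samples. The summed FPKM of 8 Leydig markers ranged from 4070 to 5660 and from 65500 to 90300 in the same order, with 8 of 8 called higher, and that of 8 stromal markers from 43 to 57 and from 1350 to 3460, again with 8 of 8 called higher. The 6 macrophage markers summed to between 21.8 and 26.6 and between 556 and 736, with 6 of 6 called higher and a median log2 fold change of 3.60, and the 6 endothelial markers to between 2.74 and 2.85 and between 37.2 and 61.2, with 6 of 6 called higher and a median of 3.23. The 7 peritubular markers summed to between 343 and 409 and between 463 and 677, with 5 called higher and 1, Actg2, called lower. Actg2 made up most of the sums of the samples labelled WT, at 255.04, 335.45 and 278.04 FPKM. It was 1.67, 2.22 and 3.60 FPKM in the labelled knockout samples, so the sums show less of a rise than the rest of the list. The 12 Sertoli markers summed to between 818 and 1020 in the samples labelled WT and to 2070, 5980 and 7010 in labelled knockout replicates 1, 2 and 3, with 3 called higher and 1, Rhox5, lower. The sum of replicate 1 was mostly Clu, at 1856.83 FPKM. As the mean of log2(FPKM + 0.1), the list was at 3.12 in replicate 1, below the samples labelled WT (3.90, 3.55 and 3.67). Replicates 2 and 3 were above them, at 5.43 and 5.90. Spermatogonium markers summed to 11.4 in labelled knockout replicate 1 against 251 and 414 in replicates 2 and 3 and between 262 and 294 in the samples labelled WT. Of the 8 in this list, 1 was called higher and 4 lower. These sums rested on different genes. Uchl1 gave most of those of replicates 2 and 3, at 189.3 and 297.01 FPKM. Ddx4 gave most of those labelled WT, at 182.52, 169.07 and 198.93 FPKM, and was 21.37 and 33.6 FPKM in replicates 2 and 3. In bulk testis, fewer cells of a type and less RNA per cell cannot be told apart.

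**Figure D1:**
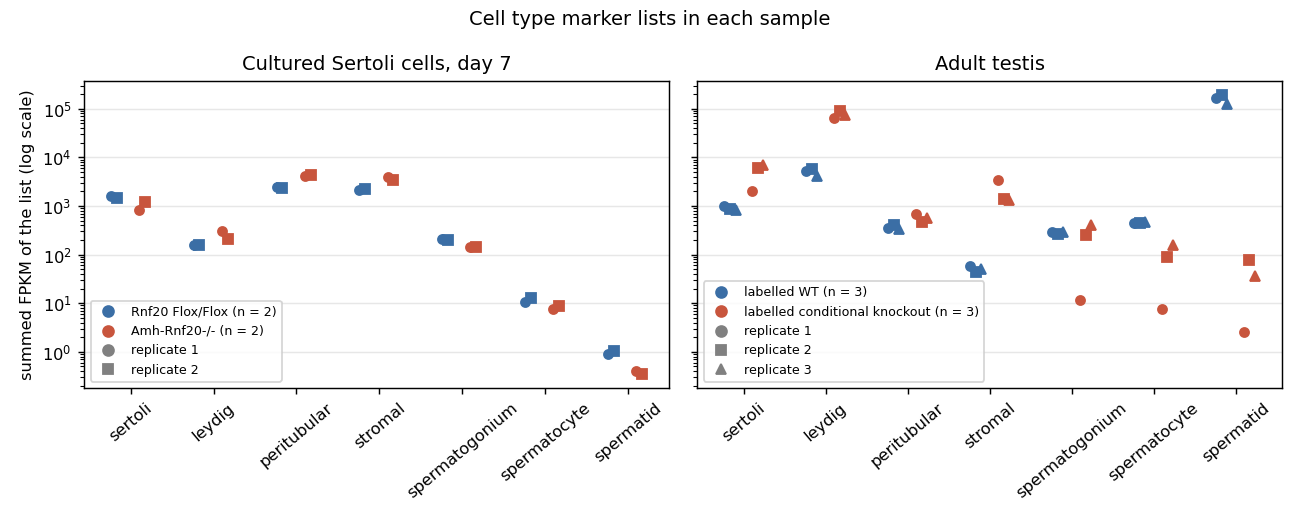
Summed FPKM of the cell type marker lists (y axis, log scale) in each sample of cultured Sertoli cells at day 7 (left) and adult testis (right), blue for the control group and red for the knockout group, with the point shape giving the replicate. Adult labelled knockout replicate 1 lies below replicates 2 and 3 for Sertoli cells (2070 against 5980 and 7010) and for spermatogonia (11.4 against 251 and 414), and the spermatid lists of the adult groups are separated by 3 orders of magnitude.

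In the day 7 cultures, the Sertoli markers Sox9, Wt1 and Cldn11 were present in all 4 samples, and 9 of the 11 Sertoli markers tested had a negative log2 fold change, with a median of -0.64. All 7 peritubular and all 8 stromal markers had positive values, with medians of 0.95 and 0.88, and all 8 spermatogonium markers negative values, with a median of -0.61. Of the 5 Leydig markers tested, 4 had positive values, among them Hsd3b1 (1.26 ± 0.25) and Insl3 (1.10 ± 0.28), with a median of 0.71. An unadjusted p under 0.05 (edgeR's quasi-likelihood test) was found for 3 of these 5, against 15.5% of all genes. It was also found for 7 of the 7 peritubular, 8 of the 8 stromal, 5 of the 8 spermatogonium and 3 of the 11 Sertoli markers. None of these 5 lists had a gene called by edgeR, while DESeq2 called 2 of the 11 Sertoli, 5 of the 7 peritubular, 2 of the 5 Leydig, 6 of the 8 stromal and 1 of the 8 spermatogonium markers at an adjusted p under 0.05, against 4.5% of all genes. The part of the cell mixture in the results below was not tested.

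At day 7 no hedgehog gene passed the threshold, and the same held for every gene of the table. Of the 8 genes, 0 were called at an adjusted p under 0.05 (edgeR's quasi-likelihood test), as were 0% of 12880 genes. At an adjusted p under 0.001 and a log2 fold change over 1 in size, 0% were called as well. The study, by contrast, reports genes that were up and down in its day 7 Sertoli cells at these limits. At an unadjusted p under 0.05 there was 1 of the 8, Gli2, against 15.5% of all genes, and DESeq2 called 1 of the 8 at an adjusted p under 0.05 against 4.5%. On TMM-scaled counts the groups did not overlap for 7 of the 8, 5 higher and 2 lower in the Amh-Rnf20-/- samples, whereas 51% of all genes showed no overlap between the groups, 24.8% higher and 26.1% lower.

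Dhh was the second most abundant of the 8 transcripts in the Rnf20 Flox/Flox cultures. It was 24.0 and 21.77 FPKM there and 4.81 and 16.07 FPKM in Amh-Rnf20-/- replicates 1 and 2. The groups did not overlap, and replicate 1 was far lower than replicate 2, which lay nearer to the controls. The log2 fold change was -1.14 ± 0.57 (SE, adjusted p = 0.411). Without Amh-Rnf20-/- replicate 1 it was -0.51 (adjusted p = 0.00506), and without replicate 2 it was -2.26 (adjusted p = 8.36e-06). In these leave-out fits the remaining knockout sample is assumed to vary like the controls, and 21.4% and 39.9% of all genes were called.

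Neither receptor gene passed the threshold at day 7. Ptch1 was 4.71 and 4.77 FPKM in the Rnf20 Flox/Flox samples and 3.80 and 4.62 FPKM in the Amh-Rnf20-/- samples. The groups did not overlap, but the log2 fold change was only -0.13 ± 0.13 (adjusted p = 0.662). It was 0 without Amh-Rnf20-/- replicate 1 (adjusted p = 0.982) and -0.28 without replicate 2 (adjusted p = 0.0366). Hhip, which encodes a membrane protein that binds hedgehog ligands and limits their action, was 1.10 and 0.91 FPKM against 1.49 and 1.14 FPKM, a log2 fold change of 0.47 ± 0.26 (adjusted p = 0.451). Both Amh-Rnf20-/- samples were above both controls, and the value was 0.27 without replicate 1 (adjusted p = 0.443) and 0.64 without replicate 2 (adjusted p = 0.0503). Without Rnf20 Flox/Flox replicate 1 or 2 it was 0.73 and 0.24 (adjusted p = 1 each).

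Smo was the most abundant member in both groups of cultures, at 32.7 and 31.99 FPKM in the Rnf20 Flox/Flox samples and 34.76 and 34.24 FPKM in the Amh-Rnf20-/- samples. Its groups did not overlap, with a log2 fold change of 0.13 ± 0.07 (adjusted p = 0.457). Sufu was 10.30 and 10.34 FPKM in the controls and 13.92 and 10.44 FPKM in the Amh-Rnf20-/- samples, so that replicate 2 was close to the controls and replicate 1 above them. Its log2 fold change was 0.28 ± 0.16 (adjusted p = 0.477). It was 0.05 without Amh-Rnf20-/- replicate 1 (adjusted p = 0.65) and 0.48 without replicate 2 (adjusted p = 0.00136).

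Among the transcription factor genes, Gli2 was the only one with an unadjusted p under 0.05 at day 7. Gli2 was 2.19 and 2.65 FPKM in the Rnf20 Flox/Flox samples and 4.88 and 4.08 FPKM in the Amh-Rnf20-/- samples, which were both higher. The log2 fold change was 0.94 ± 0.16 (adjusted p = 0.156, unadjusted p = 0.00292), and DESeq2 called it (0.95, adjusted p = 0.00357). It was 0.80 without Amh-Rnf20-/- replicate 1 (adjusted p = 0.00562) and 1.07 without replicate 2 (adjusted p = 0.00048). Gli1, whose RNA is widely used as a readout of the pathway, was 0.61 and 1.03 FPKM in the controls and 1.35 and 1.40 FPKM in the Amh-Rnf20-/- samples. These values rest on 36 to 84 counts a sample, and the log2 fold change was 0.79 ± 0.31 (adjusted p = 0.340). It was 0.47 without Rnf20 Flox/Flox replicate 1 and 1.22 without Rnf20 Flox/Flox replicate 2 (adjusted p = 1 each), and 0.82 and 0.77 without Amh-Rnf20-/- replicate 1 or 2 (adjusted p = 0.109 and 0.0948). Gli3 was 3.52 and 3.80 FPKM against 4.60 and 3.15 FPKM, so that the Amh-Rnf20-/- samples lay on either side of the controls. Its log2 fold change was 0.15 ± 0.25 (adjusted p = 0.820), and it was -0.24 without Amh-Rnf20-/- replicate 1 (adjusted p = 0.122) and 0.45 without replicate 2 (adjusted p = 0.00634).

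**Figure D2:**
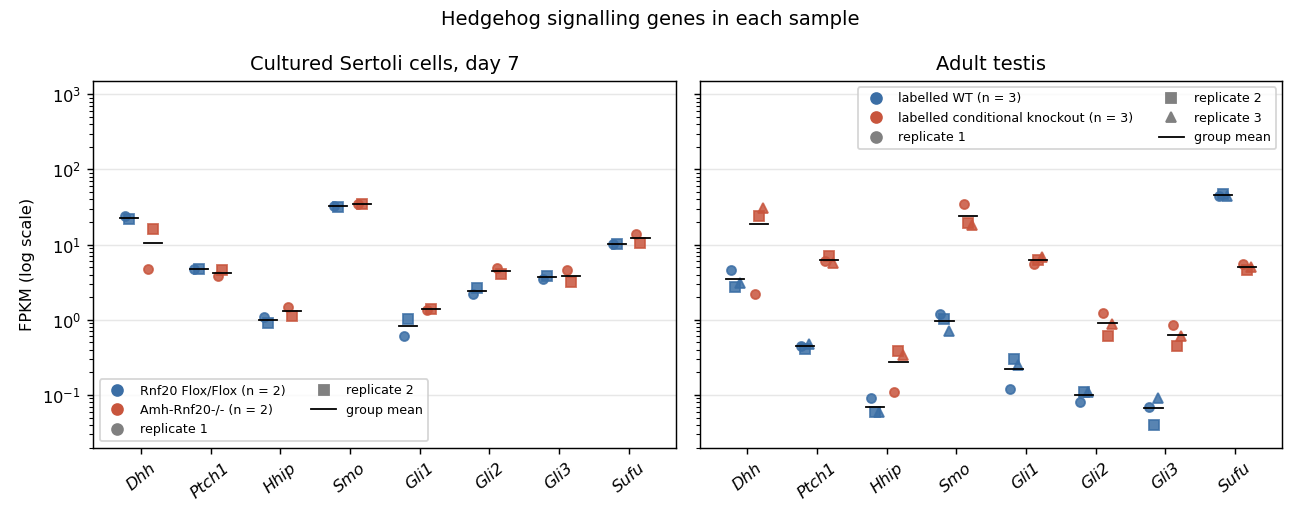
FPKM (y axis, log scale) of the 8 hedgehog signalling genes (x axis) in each sample of cultured Sertoli cells at day 7 (left) and adult testis (right). Blue points are control samples, red points knockout samples, the shape gives the replicate and the black line the group mean. At day 7 the Amh-Rnf20-/- samples are at 4.81 and 16.07 for Dhh, below the controls, and at 4.88 and 4.08 for Gli2, above them, and in adult testis Ptch1, Smo, Gli1, Gli2 and Gli3 are higher and Sufu lower in all 3 labelled knockout samples.

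In adult testis the receptor, transducer and activator genes Ptch1, Smo, Gli1 and Gli2 rose and the inhibitor gene Sufu fell in the labelled knockout samples. Of the 6 hedgehog genes tested, 5 were called at an adjusted p under 0.05 (edgeR's quasi-likelihood test), 4 higher and 1 lower. The background is large, since 81.5% of 15919 genes were called, 40.9% higher and 40.6% lower, so the count by itself sets these genes apart from no other genes of the table. With an adjusted p under 0.001 and a log2 fold change over 1 in size, 4 of the 6 were called against 46.7% of all genes. The groups of the 5 called genes did not overlap on TMM-scaled counts, which was so for 85.5% of all genes. Over the whole table the median log2 fold change was 0.01 with TMM scaling, -0.19 with median-ratio scaling and 0.87 with total counts. The direction of the 5 called genes was the same under all 3 scalings.

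Dhh in adult testis separated the labelled knockout samples from each other rather than from the controls. It was 4.60, 2.69 and 3.04 FPKM in the samples labelled WT and 2.21, 24.29 and 30.65 FPKM in labelled knockout replicates 1, 2 and 3. Replicate 1 was below every control, and replicates 2 and 3 were above every control. The log2 fold change was 1.57 ± 0.84 (adjusted p = 0.129), 1.35 with median-ratio scaling (adjusted p = 0.172) and 2.45 with total counts (adjusted p = 0.0393). Without labelled knockout replicate 1 it was 2.23 (adjusted p = 3.34e-06), in a fit that called 86.4% of all genes.

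Ptch1 was 0.45, 0.41 and 0.47 FPKM in the samples labelled WT and 6.05, 7.11 and 5.75 FPKM in the labelled knockout samples. The values were narrow in both groups and far apart, also in replicate 1, in which Dhh was lowest. The log2 fold change was 2.98 ± 0.16 (adjusted p = 3.4e-05), 2.79 with median-ratio scaling and 3.83 with total counts. Hhip was 0.09, 0.06 and 0.06 FPKM against 0.11, 0.38 and 0.34 FPKM, on 8 to 54 counts a sample. In FPKM every labelled knockout sample was above every control, but on TMM-scaled CPM (counts divided by the scaled library size) replicate 1, at 0.593, was below the controls, at 1.03, 0.689 and 0.65, and replicates 2 and 3, at 2.47 and 2.11, were above them. Hhip did not pass the filter. Fitted without the filter it had a log2 fold change of 1.15 ± 0.60 (adjusted p = 0.127), which was 1.99 with total counts (adjusted p = 0.0267) and 1.69 without replicate 1 (adjusted p = 0.00288). With limma it was 1.06 on log2(FPKM + 0.1) (adjusted p = 0.0358) and 0.25 on log2(FPKM + 1) (adjusted p = 0.0434).

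Smo was 1.18, 1.02 and 0.71 FPKM in the samples labelled WT and 34.84, 19.34 and 17.97 FPKM in labelled knockout replicates 1, 2 and 3. Replicate 1 was the highest of the labelled knockout samples, the opposite of its place for Dhh. The log2 fold change was 3.79 ± 0.39 (adjusted p = 0.000223), and 3.51 without replicate 1 (adjusted p = 5.45e-07).

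Gli1 was 0.12, 0.30 and 0.25 FPKM in the samples labelled WT and 5.47, 6.25 and 6.86 FPKM in the labelled knockout samples, which lay close together and all above the controls. Its log2 fold change was 3.89 ± 0.35 (adjusted p = 0.000129). The 3′ end of Gli1 shares 66 bases with Arhgap9, a gene on the other strand, which was 0.04, 0.12 and 0.25 FPKM in the controls and 4.87, 4.96 and 2.90 FPKM in the labelled knockout samples. Whether strand was used in counting is not given in the sources used here, so a share of reads from this overlap cannot be told apart. Gli2 was 0.08, 0.11 and 0.11 FPKM against 1.23, 0.60 and 0.87 FPKM, a log2 fold change of 2.31 ± 0.40 (adjusted p = 0.00209). Gli3 was 0.07, 0.04 and 0.09 FPKM against 0.86, 0.45 and 0.60 FPKM, on 5 to 86 counts, and did not pass the filter. Fitted without it, Gli3 had a log2 fold change of 2.17 ± 0.45 (adjusted p = 0.00478). All 3 transcription factor genes were higher in FPKM in every labelled knockout sample than in any control, as were 54.9% of all genes.

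Sufu was the most abundant of the 8 transcripts in testes labelled WT, at 44.02, 47.86 and 44.01 FPKM, and was 5.44, 4.66 and 5.08 FPKM in the labelled knockout samples. Both groups were narrow. The log2 fold change was -4.02 ± 0.17 (adjusted p = 2.75e-05), -4.21 with median-ratio scaling and -3.16 with total counts. The spermatid markers given above fell in the same samples, with 8 of 8 called lower, against 40.6% of all genes. Their median log2 fold change was -11.56, and their part in the fall of Sufu was not tested. The Sufu level left in the labelled knockout testes was below that of the day 7 Sertoli cultures in FPKM, but the tables were normalised separately and no test was made between them.

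**Figure D3:**
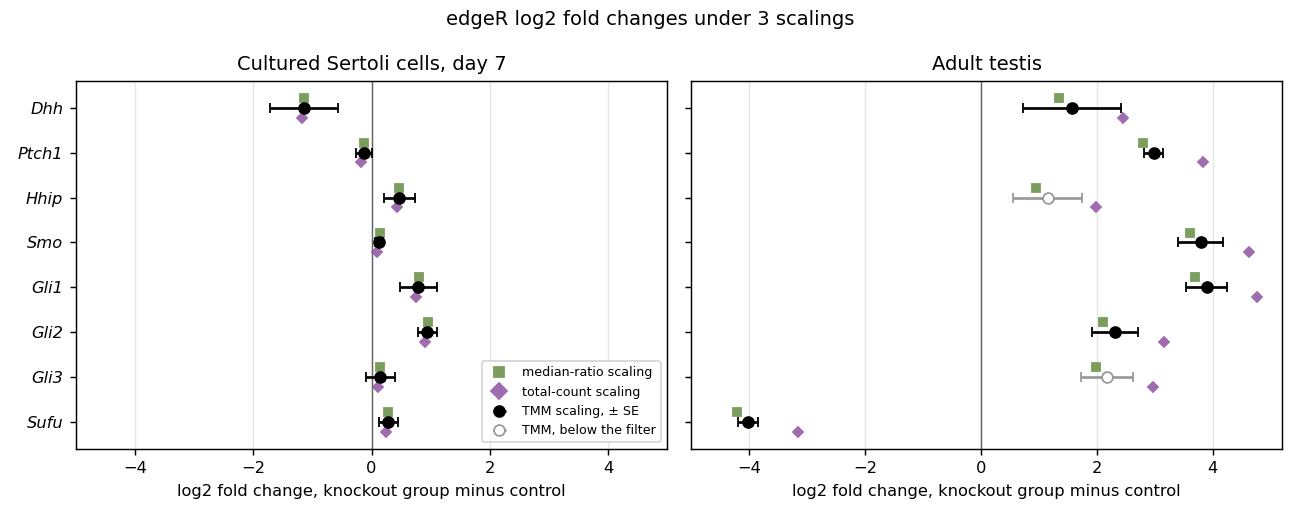
Log2 fold change of the 8 genes (x axis, knockout group minus control group) at day 7 (left, 2 against 2 samples) and in adult testis (right, 3 against 3 samples). Circles give edgeR's estimate with TMM scaling and its SE, open grey circles genes below the filter, green squares median-ratio scaling and purple diamonds total-count scaling. In adult testis the scalings shift the genes by similar amounts and leave Ptch1, Smo, Gli1 and Gli2 above 0 and Sufu below 0, whereas at day 7 they nearly coincide.

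The order of the levels, which FPKM allows since it is per length, differed between the sample types. In the Rnf20 Flox/Flox cultures the order of the mean FPKM was Smo (32.3 ± 0.502, SD, n = 2), Dhh (22.9 ± 1.58), Sufu (10.3 ± 0.0283), Ptch1 (4.74 ± 0.0424), Gli3 (3.66 ± 0.198), Gli2 (2.42 ± 0.325), Hhip (1.01 ± 0.134) and Gli1 (0.82 ± 0.297), and Hhip and Gli1 were the only neighbours whose samples overlapped. In the Amh-Rnf20-/- cultures Smo was again first, and the samples of Sufu, Dhh, Gli2, Ptch1 and Gli3 overlapped from each to the next. In testes labelled WT the order was Sufu (45.3 ± 2.22, SD, n = 3), Dhh (3.44 ± 1.02), Smo (0.97 ± 0.239), Ptch1 (0.443 ± 0.0306) and Gli1 (0.223 ± 0.0929), with Gli2, Hhip and Gli3 overlapping at 0.1 FPKM or less on average. In the labelled knockout testes Smo (24.1 ± 9.37), Dhh (19.1 ± 14.9), Ptch1 (6.30 ± 0.715) and Gli1 (6.19 ± 0.697) overlapped from each to the next. Every sample of Smo, Ptch1 and Gli1 was above every sample of Sufu (5.06 ± 0.390), whereas Dhh ran from 2.21 to 30.65 FPKM, below Sufu in replicate 1 and above it in replicates 2 and 3.

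To set Dhh against the amount of Sertoli cell RNA, its FPKM was divided by that of single Sertoli genes within each sample, a measure that does not depend on the scaling of libraries and was chosen after the data had been seen. Relative to Sox9, the transcription factor that specifies Sertoli cells, Dhh was 0.574 and 0.552 in the Rnf20 Flox/Flox cultures and 0.472 and 0.626 in the Amh-Rnf20-/- cultures. In adult testis it was 1.97, 1.96 and 1.72 in the samples labelled WT and 1.84, 2.46 and 2.42 in the labelled knockout samples. The groups overlapped in both tables, and the samples with little Dhh, Amh-Rnf20-/- replicate 1 and labelled knockout replicate 1, also had the least Sox9 in their tables, at 10.19 and 1.20 FPKM.

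Other Sertoli genes gave another picture. Relative to Wt1, Dhh was 0.345 and 0.309 in the Rnf20 Flox/Flox cultures against 0.109 and 0.304 in the Amh-Rnf20-/- cultures, and in adult testis it was 0.554, 0.516 and 0.429 against 0.123, 0.586 and 0.654. Here replicate 1 of each knockout group was low. Relative to Cldn11, which encodes a tight junction protein, Dhh was 0.105 and 0.102 against 0.343 and 0.107 at day 7, and 0.132, 0.0993 and 0.1 against 0.0673, 0.107 and 0.104 in adult testis. In Amh-Rnf20-/- replicate 1, Cldn11 was thus lower still than Dhh, at 14.01 FPKM against 228.89 and 213.74 in the controls. Over all 12 Sertoli markers, the ratio of Dhh to the marker was lower in both Amh-Rnf20-/- samples than in both controls for 6 markers, higher for 1 and overlapping for 5. In adult testis it was lower in all labelled knockout samples for 1, higher for 2 and overlapping for 9. Relative to Inhbb, an inhibin subunit gene, Dhh was 0.637 and 0.573 against 0.143 and 0.383 at day 7. In adult testis, relative to Amh, the anti-Müllerian hormone gene, it was 5.23, 4.27 and 3.42 against 1.30, 1.81 and 1.57, and relative to Cst12 it was 0.0198, 0.0132 and 0.0181 against 0.0456, 0.0443 and 0.0357. Amh, Inhbb and Cst12 were picked after the ratios were seen, as examples of both directions.

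**Figure D4:**
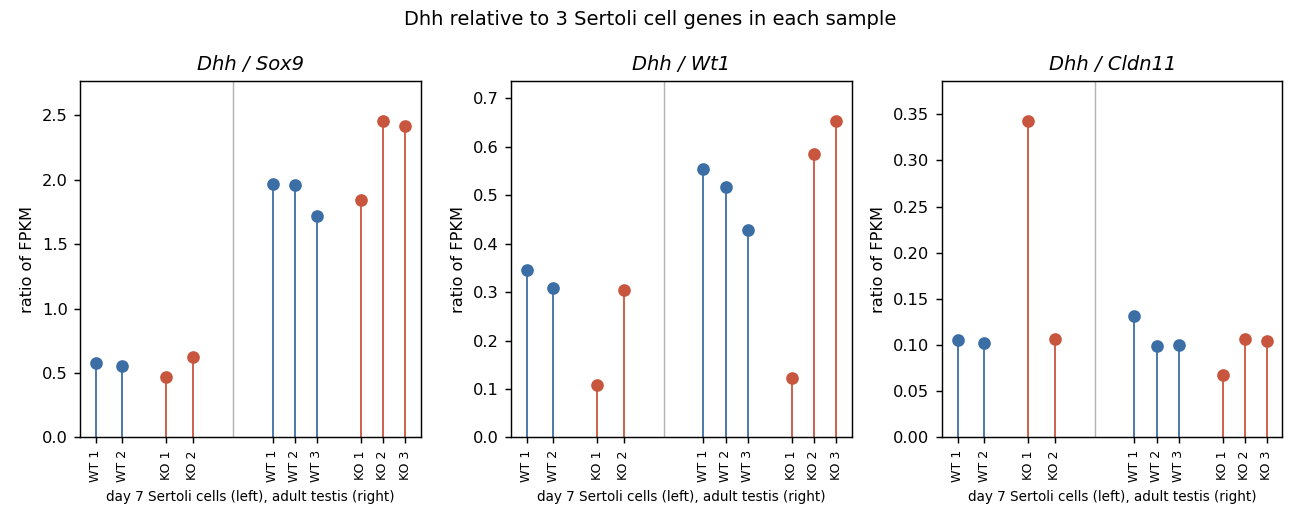
Ratio of Dhh FPKM to that of Sox9, Wt1 and Cldn11 (y axes, from 0) in each sample, day 7 cultures to the left of the grey line and adult testes to the right, blue for control and red for knockout samples (KO). The ratio to Sox9 runs from 0.472 to 0.626 at day 7 and from 1.72 to 2.46 in adult testis, while replicate 1 of each knockout group is low relative to Wt1.

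Against the whole list of 12 Sertoli markers, as the mean of log2(FPKM + 0.1), Dhh differed by -0.62 between the day 7 groups (exact permutation test, two-sided, p = 0.333, the smallest p that 2 against 2 samples allow) and by 0.68 between the adult groups (exact permutation test, p = 0.2, where 3 against 3 allow 0.1). With 1 sample left out, the day 7 value ranged from -0.86 without Amh-Rnf20-/- replicate 2 to -0.39 without replicate 1, and the adult value from 0.48 without labelled knockout replicate 2 to 1.02 without replicate 1. The day 7 value was -0.44 with markers of a mean FPKM of at least 1. Without Rhox5, which moved against most of the list, the differences were -0.48 and 0.14, an alternative added after the data had been seen. Neither design can pass the threshold.

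The response genes Ptch1, Hhip and Gli1 were set against markers of the cells that carry the receptors in the same way. In adult testis, Ptch1 was lower relative to Leydig markers by -1.17 and to stromal markers by -1.21, and higher relative to peritubular markers by 1.93, each without overlap of the groups (exact permutation test, p = 0.1, adjusted over 10 ratios 0.167). Gli1 differed by -0.40 relative to Leydig markers and by -0.45 relative to stromal markers with overlapping groups (exact permutation tests, p = 0.5 and 0.4), and was higher by 2.69 relative to peritubular markers (exact permutation test, p = 0.1). The Gli1 values depended on the pseudocount, since on log2(FPKM + 1) they were -2.09, -1.63 and 1.15 in the same order (exact permutation test, p = 0.1 each), and on log2(FPKM + 0.01) 0.09, -0.03 and 3.16 (exact permutation tests, p = 0.9, 1 and 0.1). With 1 library left out, Gli1 ranged from -0.81 without WT replicate 1 to -0.07 without WT replicate 2 relative to Leydig markers, and from -0.81 without WT replicate 1 to -0.11 without labelled knockout replicate 1 relative to stromal markers. Hhip was lower by -3.66 relative to Leydig and by -3.70 relative to stromal markers (exact permutation test, p = 0.1 each), and by -0.56 with overlapping groups relative to peritubular markers (exact permutation test, p = 0.6). Actg2, a smooth muscle actin gene on the peritubular list, fell against the rest of that list, from 255.04, 335.45 and 278.04 FPKM to 1.67, 2.22 and 3.60 FPKM. Without it, an alternative added after the data had been seen, the differences relative to the other 6 peritubular markers were 0.51 for Ptch1, with overlapping groups (exact permutation test, p = 0.2), 1.28 for Gli1, still without overlap, and -1.98 for Hhip, now lower without overlap (exact permutation test, p = 0.1 each). At day 7, Ptch1 was lower relative to all 3 lists, by -0.68 for Leydig, -1.19 for peritubular and -1.20 for stromal markers, without overlap of the groups (exact permutation test, p = 0.333 each). Hhip was lower by -0.67 relative to peritubular and by -0.67 relative to stromal markers without overlap (exact permutation test, p = 0.333 each), and differed by -0.15 with overlap relative to Leydig markers (exact permutation test, p = 0.667). For Gli1 the groups overlapped relative to all 3 lists, with differences of 0.22 for Leydig, -0.30 for peritubular and -0.31 for stromal markers (exact permutation tests, p = 1, 1 and 0.667).

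A further 39 genes of the pathway were read in 5 lists. At day 7, 32 of them were tested and 0 were called by edgeR, against 0% of all genes, while 9 had an unadjusted p under 0.05, against 15.5% of all genes, and DESeq2 called 4, against 4.5%. Their median log2 fold change was 0.14, with 24 positive and 8 negative values, against a median of 0 for all genes tested. The receptor and co-receptor genes differed among themselves in their values. Boc, which encodes a co-receptor that presents the ligand, was 4.35 and 4.38 FPKM in the Rnf20 Flox/Flox samples and 11.16 and 7.91 FPKM in the Amh-Rnf20-/- samples, a difference of 1.17 ± 0.20 on the log2 scale (adjusted p = 0.149 with edgeR and 0.000238 with DESeq2). Gpc3, a glypican that competes with PTCH1 for ligand, was 10.56 and 10.71 against 18.98 and 16.71 FPKM (0.79 ± 0.11, adjusted p = 0.136). Gpc3 was called by DESeq2 (0.79, adjusted p = 0.003) and without Amh-Rnf20-/- replicate 1 (0.68, adjusted p = 0.00234) or replicate 2 (0.88, adjusted p = 0.000246). Cdon, another co-receptor gene, was 5.10 and 5.28 against 15.54 and 6.96 FPKM (1.15 ± 0.40, adjusted p = 0.303, and 0.0347 with DESeq2). Gas1, also a co-receptor gene, was 10.94 and 10.01 against 10.92 and 10.15 FPKM, with overlapping groups (0.05 ± 0.11). The day 7 values of Boc, Cdon and Gas1 were picked after they were seen. The most abundant genes of the other lists were close to their controls, as for Disp1 (-0.01 ± 0.10), which releases the lipid-bearing ligand from the cell, Tulp3 (0.12 ± 0.07) and Csnk1a1 (-0.09 ± 0.13, and -0.24 with an adjusted p of 0.0241 without Amh-Rnf20-/- replicate 1), except for the response gene Igfbp6 (0.72 ± 0.20, adjusted p = 0.242). Igfbp6 was called in 3 alternatives, by DESeq2 (0.72, adjusted p = 0.0294) and without Amh-Rnf20-/- replicate 1 (0.42, adjusted p = 0.00252) or replicate 2 (0.97, adjusted p = 1.54e-05).

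In adult testis 31 of the 39 genes were tested, and 15 were called higher and 12 lower by edgeR. This is 27 of 31 beside 81.5% of all genes, of which 40.9% were called higher and 40.6% lower, the background for the counts of each list below. The median log2 fold change was 0.76 against 0.01 for all genes. Of 5 receptor and co-receptor genes tested, 4 rose. Cdon was 0.49, 0.57 and 0.54 FPKM in the samples labelled WT and 53.06, 18.80 and 14.00 FPKM in the labelled knockout samples (4.92 ± 0.64, adjusted p = 0.000561), and Gas1 was 0.69, 0.45 and 0.83 against 30.92, 16.30 and 14.41 FPKM (4.13 ± 0.44, adjusted p = 0.000248). In both, as in Smo, replicate 1 was the highest, and without it the values were 4.19 for Cdon (adjusted p = 1.41e-07) and 3.79 for Gas1 (adjusted p = 5.58e-07). Gpc3 rose by 3.90 ± 0.31 and Boc by 3.22 ± 0.30.

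Of the 4 genes for ligands and their release that were tested, 1 rose and 2 fell. Disp1 rose by 2.15 ± 0.20, while Scube2 and Scube3, whose products help release the ligand, fell by 2.72 ± 0.81 and 2.50 ± 0.21. The call of Scube2 was lost in 5 of 14 alternatives, with adjusted p from 0.0515 to 0.077: with total counts, with limma on log2(FPKM + 0.1), and without labelled knockout replicate 3, WT replicate 2 or WT replicate 3. The other hedgehog ligand genes were at the bottom of both tables, Shh at no more than 0.14 FPKM and Ihh at no more than 0.27 FPKM in any sample. Among 7 cilium and Smo traffic genes, 4 rose, Evc (4.40 ± 0.58), Evc2 (3.71 ± 0.25), Tulp3 (2.64 ± 0.28) and Grk2 (1.73 ± 0.18), and 3 fell, Ift88 (-2.52 ± 0.15), Kif3a (-2.50 ± 0.17) and Arl13b (-2.22 ± 0.16). Evc and Evc2 encode a complex that binds active SMO, whereas Ift88 and Kif3a are needed to build any cilium or flagellum.

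Of 8 Gli processing genes, 1 rose and 6 fell. Stk36 fell most, from 29.63, 28.53 and 32.90 FPKM to 0.94, 1.83 and 2.42 FPKM (-5.01 ± 0.35, adjusted p = 6.13e-05), followed by Cul3 (-2.41 ± 0.21) and the kinase gene Gsk3b (-2.33 ± 0.15). Spop, whose product directs GLI proteins to CUL3 for ubiquitylation, rose by 2.16 ± 0.20, so Spop and Cul3 changed in opposite directions. Of 8 response genes tested, 5 rose. Bcl2 rose by 4.33 ± 0.54, Ccnd2 by 3.50 ± 0.22, Igfbp6 by 3.13 ± 0.38 and Foxc2 by 2.29 ± 0.52. Many of these genes also serve other pathways, and the marker lists given above moved in the same samples.

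**Figure D5:**
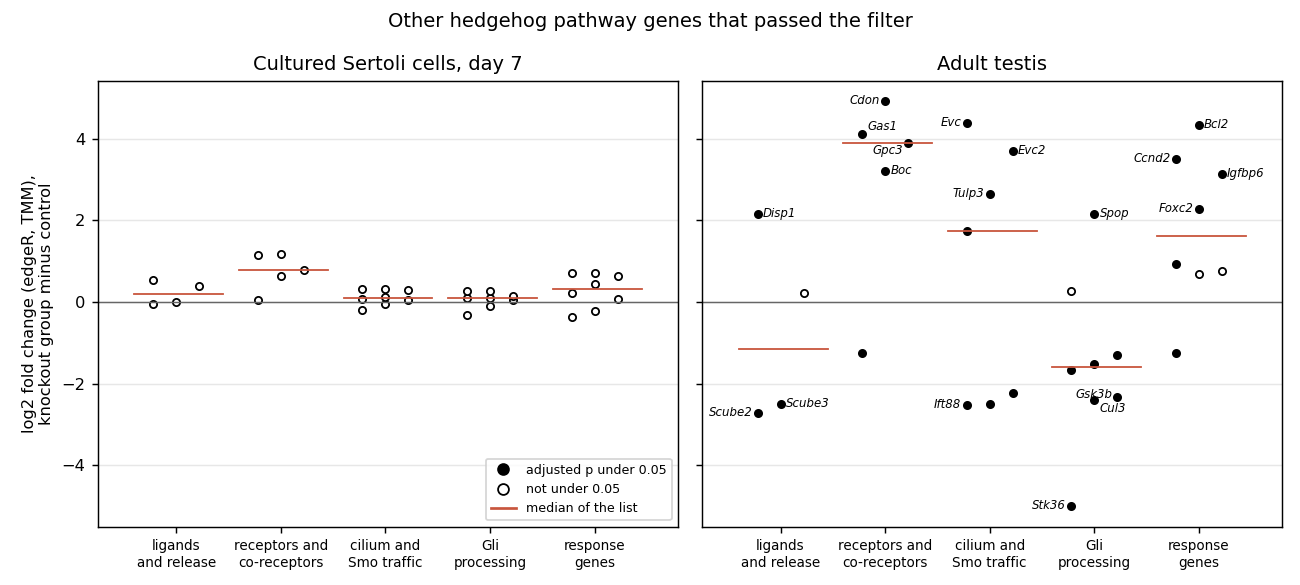
Log2 fold change (y axis, edgeR with TMM scaling, knockout group minus control group) of the other hedgehog pathway genes that passed the filter, in 5 lists, at day 7 (left) and in adult testis (right). Filled points have an adjusted p under 0.05, open points do not, and red lines are list medians. No gene is called at day 7, and in adult testis the receptor list has a median of 3.90 and the Gli processing list of -1.59.

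The genes whose pattern over the 10 samples was most like that of Dhh, each gene being centred within its table, were Tubb3, Tmem200b, Sox9, Vxn and Wnk3, with a root mean square difference in TMM-scaled log2 counts of 0.18 to 0.25, among 12378 genes tested in both tables. Sox9, for example, was 41.84, 39.43, 10.19 and 25.66 FPKM in the day 7 samples in the order given for Dhh, and 2.34, 1.37, 1.77, 1.20, 9.86 and 12.65 FPKM in the adult samples. Tubb3 was 17.09, 10.92 and 13.45 FPKM in the testes labelled WT and 11.76, 96.77 and 151.92 FPKM in the labelled knockout samples, so it too was low in replicate 1 alone of that group.

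The genes most like Gli1 were Csf2rb, Sp140, Cyp4f14, Mccc1 and Irf1, with differences of 0.25 to 0.27. Csf2rb encodes a cytokine receptor subunit and Irf1 an interferon regulatory factor, and the macrophage markers given above were higher in the same adult samples, whose part in this likeness was not tested. Of the other hedgehog genes, Ptch1 was in place 537 with a difference of 0.45, Smo in place 878 with 0.50 and Gli2 in place 2442 with 0.71. Dhh was in place 8088 with 1.56 and Sufu in place 11911 with 2.88. The ligand gene and the response gene were therefore far apart over these samples.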

How the data were processed

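The 10 samples were taken from 2 tables, each analysed alone. According to the study's methods, which describe the day 7 samples, libraries were made by oligo(dT) selection, reads were mapped to GRCm38.p6 with HISAT and to genes with Bowtie2, and RSEM gave gene values. The versions and the strand setting are not given in the sources used here. The authors deposited estimated counts, FPKM and TPM per gene and sample. TPM was not used. Estimated counts, of which 10.7% to 13.2% per sample were not whole, were rounded. The adult table also had 20 empty columns.

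Genes whose FPKM reached 0.5 in 2 samples (day 7) or 3 samples (adult) were tested with edgeR 4.0.16 (glmQLFit and glmQLFTest in R 4.3.3, TMM scaling, Benjamini-Hochberg adjustment over all genes of a table, called at an adjusted p under 0.05). An adjusted p under 0.001 with a log2 fold change over 1, as in the study, was counted as well. TMM factors were 0.984 to 1.02 at day 7, 0.71 to 0.761 in the adult samples labelled WT and 1.27 to 1.42 in those labelled conditional knockout. Alternatives were median-ratio and total-count scaling, other filters, DESeq2 1.42.0, limma 3.58.1 on log2(FPKM + 0.1) and log2(FPKM + 1), the replicate number as a block, and each sample left out. The fit was tested on simulated data. Ratios to markers used log2(FPKM + 0.1) and exact two-sided permutation tests.

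Named genes were the 8 members and Rnf20, up to 4 called genes of each pathway list by size of change with its most abundant gene, and others where so stated. The members and lists were chosen with earlier results of these data known. Promoters and positions are from RefSeq on GRCm38.p6, in which 7 of the 8 members had a promoter. The values of 1 gene of the lists are not reported here.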

Additional observations from a re-analysis of the deposited data

Results flagged for a closer look

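For 5 of the members and pathway genes named by the rule above, every knockout sample lay on one side of the controls at day 7. In adult testis it lay on the opposite side, on TMM-scaled counts. Over all genes tested, the groups did not overlap for 51% at day 7 (24.8% higher, 26.1% lower). In adult testis this was so for 85.5% (42.4% higher, 43.1% lower). The share of all genes on opposite sides was not counted, and other genes of the lists did the same, so the pattern does not set these 5 apart. Ptch1 had a log2 fold change of 2.98 in adult testis and -0.13 at day 7, and Sufu of -4.02 and 0.28. Scube2 had -2.72 in adult testis and 2.61 at day 7, where it did not pass the filter, Bcl2 had 4.33 and -0.23, and Ccnd2 had 3.50 and -0.36. The day 7 values did not pass the threshold in any of the 5. The difference between the tables was not tested, since the tables hold different materials and were normalised separately.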

How the results depend on the processing

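In adult testis the count of 5 called members held under each scaling and tool tried or moved by less than 1.5 times, and Ptch1, Smo, Gli1, Gli2 and Sufu kept their direction and call in every alternative in which they were tested. The size of some changes was less stable. Over the alternatives, the adult log2 fold change ranged from 0.78 to 3.15 for Gli2, 2.55 to 4.76 for Gli1 and 0.61 to 2.96 for Gli3. Among the other pathway genes it ranged from 1.24 to 5.16 for Bcl2, 0.59 to 3.12 for Foxc2, 2.06 to 5.23 for Evc and -2.7 to -0.78 for Scube3. At day 7 the count of called members was 1 with DESeq2 and between 0 and 5 with a sample left out, and that of the other pathway genes was 4 with DESeq2 and between 0 and 15. Of the samples left out, only those of Amh-Rnf20-/- raised these counts, since this leaves the closely matching controls to set the spread. Gli3 at day 7 ranged from -0.24 to 0.45 with a sample left out, Csnk1a1 reached 0.05 and Disp1 ranged from -0.1 to 0.07, and Rnf20 in adult testis was -0.08 with median-ratio scaling and with DESeq2. The ratios near 0 changed sign: relative to Leydig markers at day 7, Hhip ranged from -0.34 to 0.04 with a sample left out, and Gli1 was -0.01 with log2(FPKM + 0.01) and ranged from -0.11 to 0.54. Gli1 ranged from -0.76 to 0.16 relative to peritubular and from -0.61 to 0 relative to stromal markers. With log2(FPKM + 0.01) in adult testis, Hhip relative to peritubular markers was 0.03 and Gli1 relative to Leydig markers 0.09, whereas with log2(FPKM + 1) they were -1.16 and -2.09 (exact permutation test, p = 0.1 each). With log2(FPKM + 1), Ptch1 in adult testis was -2.31 relative to Leydig, -1.85 relative to stromal and 0.93 relative to peritubular markers. With a sample left out, Hhip relative to peritubular markers in adult testis ranged from -0.97 to -0.01. The cause was not tested.

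With the replicate number as a block, 0 members were called at day 7 and 5 in adult testis, where the block fit called 76.7% of all genes. Samples with the same number did not deviate together (correlations of 0.00623 to 0.0316). With 2 samples a group the day 7 correlations are equal by construction, so these values cannot exclude that the numbers pair the samples. Hhip and Gli3 in adult testis rest on few counts.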

Other observations

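Foxf2, a forkhead gene listed among the hedgehog response genes, did not pass the filter in adult testis. It was 0.03, 0.06 and 0.03 FPKM in the samples labelled WT and 0.21, 9.34 and 15.61 FPKM in labelled knockout replicates 1, 2 and 3. Among these 3 samples the order was that of Dhh, but replicate 1 was above every control for Foxf2 and below every control for Dhh. At day 7 it was 1.31 and 1.23 FPKM in the Rnf20 Flox/Flox samples and 1.45 and 1.16 FPKM in the Amh-Rnf20-/- samples, where Dhh was lower. It was named after its values were seen.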
